A study of Mus musculus with 6 samples.

Results

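SP600125 by itself, with no cytokine, was compared with untreated A20 cells. A20 is a B lymphoma line from a BALB/c mouse, and SP600125 is a small ATP-competitive inhibitor of the c-Jun N-terminal kinases (JNKs). The comparison holds 2 of the 6 arrays of the study: cells in normal growth medium with DMSO (called untreated here) and cells cultured with SP600125 for 24 h. Both were chosen by their titles, and every probe set entered. The other 4 arrays hold the same line after 12 h or 24 h of TGF-β, each with DMSO or with SP600125. Every condition has 1 array, and the labels do not say whether cultures were grown on separate days. The dose of SP600125 is not given in the sources used here. The comparison asks what the drug does to these cells before any TGF-β is added.

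JNKs are stress-activated kinases that phosphorylate c-Jun and related factors of the AP-1 family. In B cells they act downstream of the antigen receptor, CD40 and cytokine receptors. A separate stress pathway, the integrated stress response, acts through kinases of the translation factor eIF2α. It favours translation of the transcription factor ATF4, which switches on amino acid synthesis, amino acid uptake and tRNA charging. Sterol synthesis is governed by the SREBP factors, which are held in the ER membrane when sterol is plentiful.

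The values are linear signals, 1 per probe set and array. Anything dimmer than 74.2, the 50th percentile over the 6 arrays, was raised to that value, called the floor. Folds and log2 differences measured against the floor are lower bounds. A gene is its brightest probe set. On the untreated array 10448 genes were above the floor, against 10658 with SP600125, and the ratio of the actin 3′ to 5′ signals was 1.25 against 1.51. The array with 24 h of TGF-β and SP600125 stood apart, with an 18S signal of 5878.2 against 506.5 to 881.5 on the other arrays and an actin ratio of 1.89. B cell markers fitted the label: 23 of 23 were above the floor in untreated cells and 22 of 23 with the drug. Of the NK and T cell markers 2 of 14 were above it on both arrays, and of the myeloid markers 3 of 14. Their summed signals were 807 and 929 for the NK and T cell list and 1465 and 1209 for the myeloid list, untreated and with drug. Cd3d, Cd3e, Cd3g, Cd4, Cd14, Mpo, S100a8 and Itgam lay below the floor on both. The NK and T cell markers above it on both were Zap70 (302.0 and 372.4) and Prf1 (80.0 and 121.4). The myeloid ones were Cd68 (495.3 and 262.4), Csf1r (285.9 and 277.1) and Adgre1 (271.3 and 195.4).

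Of the 11374 genes above the floor on at least 1 array of the pair, 364 (3.20%) were at least 2-fold higher with SP600125 and 150 (1.32%) at least 2-fold lower. The median log2 difference was 0.05 with an SD of 0.48 over genes. At least 4-fold differences were seen for 35 genes upward and 10 downward, and at least 8-fold for 8 and 1. Among the 364 higher genes, 81 were below the floor in untreated cells, and among the 150 lower genes 37 were below it with the drug. With 1 array a side this pair has no test. Tests came from limma with Benjamini-Hochberg adjustment in 2 fits. The 6-array fit averaged the drug effect over the 3 states of TGF-β, and "rose" and "fell" below refer to it at an adjusted p under 0.05. The 4-array fit used only the arrays with TGF-β, so it shares no array with the unstimulated pair. The 6-array fit includes that pair. For genes named for their size in the pair, its estimates and p-values therefore reuse the values that chose them. Such estimates can run too large, and their p-values too small. The 6-array fit called 485 genes risen (4.15%) and 440 fallen (3.76%), and the 4-array fit 76 (0.650%) and 50 (0.427%) of 11698 genes. With each array centred on its median instead, the 6-array split was 349 and 678. The calls need all 6 arrays: leaving out 1 left between 0 and 85 genes risen and between 0 and 48 fallen. Without the array that stood apart 0 were called in either direction, with 1885 at an unadjusted p under 0.05, and without the 24 h TGF-β array 0, with 1883. The 12 h pair does not use that array, and its values are given for the larger lists and for many of the genes named. The drug had been present for 12 h in that pair and for 24 h in the unstimulated pair.

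**Figure D1:**
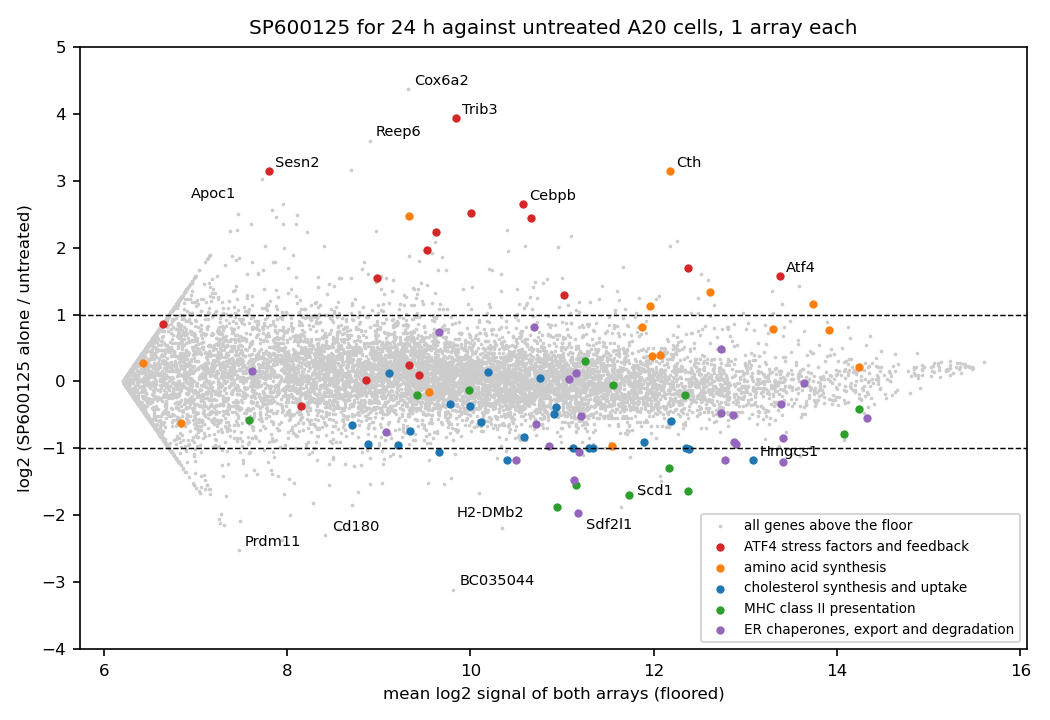
Log2 ratio of SP600125 alone to untreated (vertical) against the mean log2 signal of both arrays after the floor (horizontal), 1 point per gene, with dashed lines at 2-fold. Coloured points are members of 5 gene lists. The ATF4 factors and amino acid genes lie mostly above 0, up to 3.94 for Trib3, and the cholesterol, class II and ER chaperone genes mostly below, down to -1.96 for Sdf2l1.

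The largest difference was in Cox6a2, the heart and muscle form of a cytochrome oxidase subunit. Its signal was 140.8 in untreated cells and 2902.5 with SP600125, which is 20.6-fold higher. With TGF-β it was 181.6 without and 954.7 with drug at 12 h, and 195.0 and 1903.7 at 24 h, so the 3 drug arrays lay above the 3 arrays without drug. Cox6a2 rose by 3.35 ± 0.32 (log2, SE; limma adjusted p 0.00136). Reep6, a shaper of ER membranes, went from 137.3 to 1665.3, 12.1-fold higher, and was also higher at 12 h (log2 2.91) and 24 h (2.26). Tram2, an ER translocation protein, went from 138.8 to 1241.2, and the log2 differences were smaller with TGF-β (0.96 and 1.31 against 3.16). Mfsd4a, of the transporter superfamily, was at least 8.99-fold higher without TGF-β but -0.16 and 0.60 (log2) with it, and its effect over the 3 states did not pass the test (adjusted p 0.218). A further Mfsd4a probe set, at 105.0 and 1135.6, gave 3.43 without TGF-β and 1.04 and 1.49 with it, so the contrast between the pairs was smaller there. Among the 15 highest genes were also Adm2, which encodes a secreted peptide of the adrenomedullin family, and Jdp2, a repressor that pairs with Jun. Jdp2 was 116.2 untreated and 653.2 with drug, and its log2 differences of 2.49, 2.49 and 2.25 over the 3 pairs were nearly the same.

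Of the 15 highest genes 4 belong to the ATF4 group: Trib3, Sesn2, Cebpb and Atf5. Of 20 genes found for the list of ATF4 stress factors and feedback genes, 16 were above the floor. Of these, 11 were at least 2-fold higher and 0 lower, with a median log2 difference of 1.63 (1.36 at 12 h of TGF-β) against 0.05 for all genes (0.02 at 12 h). In the 6-array fit 11 rose and 0 fell, and in the 4-array fit 9 rose.

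Atf4 itself, already bright at 6172.8 in untreated cells, was 18321.0 with SP600125 (log2 1.57). Its 3 arrays without drug read 5245.1 to 6172.8 and its 3 drug arrays 15179.3 to 18321.0, with no overlap. Atf4 rose by 1.49 ± 0.08 (adjusted p 1.17e-04). Of the factors that act with it, Cebpb, Atf5 and Ddit3 differed by more than Atf4 and Cebpg and Atf3 by less. Cebpb, a basic leucine zipper partner of ATF4, went from 606.9 to 3805.0 and rose by 2.87 ± 0.13 (adjusted p 9.78e-05). Atf5, a relative of ATF4, went from 429.4 to 2470.9, and Ddit3, which encodes the stress factor CHOP, from 363.2 to 1709.2. A further Ddit3 probe set went the other way in this pair (164.8 to 107.5) and was 1.37 and 0.11 (log2) in the TGF-β pairs. Cebpg, a dimer partner of both, was 2-fold higher and steady over the pairs (log2 1.29, 1.27 and 1.51). Atf3, an ATF4 target and repressor, was below the floor untreated and 134.5 with drug (at least 0.86 in log2) and did not pass the test.

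The feedback genes were among the largest. Trib3, a pseudokinase that restrains ATF4 and CHOP, went from 234.0 to 3593.1, 15.4-fold higher, with a further probe set at 173.6 and 2595.5. Its log2 differences with TGF-β were 3.01 and 3.79, and it rose by 3.58 ± 0.18 (adjusted p 1.17e-04). Chac1, which degrades glutathione, went from 696.4 to 3779.1 and Ppp1r15a, the GADD34 subunit that reverses eIF2α phosphorylation, from 373.0 to 1458.3. Sesn2, an inhibitor of mTORC1 also counted among the p53 targets, went from 74.9 to 660.5 (log2 3.14), but a further probe set only from 220.2 to 466.6 (1.08). Eif4ebp1, a repressor of cap-dependent translation, went from 2952.9 to 9565.9. All 5 rose in the 6-array fit. Sesn2 missed the threshold in the 4-array fit (adjusted p 0.0527). Eif2ak3, the ER-resident eIF2α kinase PERK, differed little (log2 0.10).

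**Figure D2:**
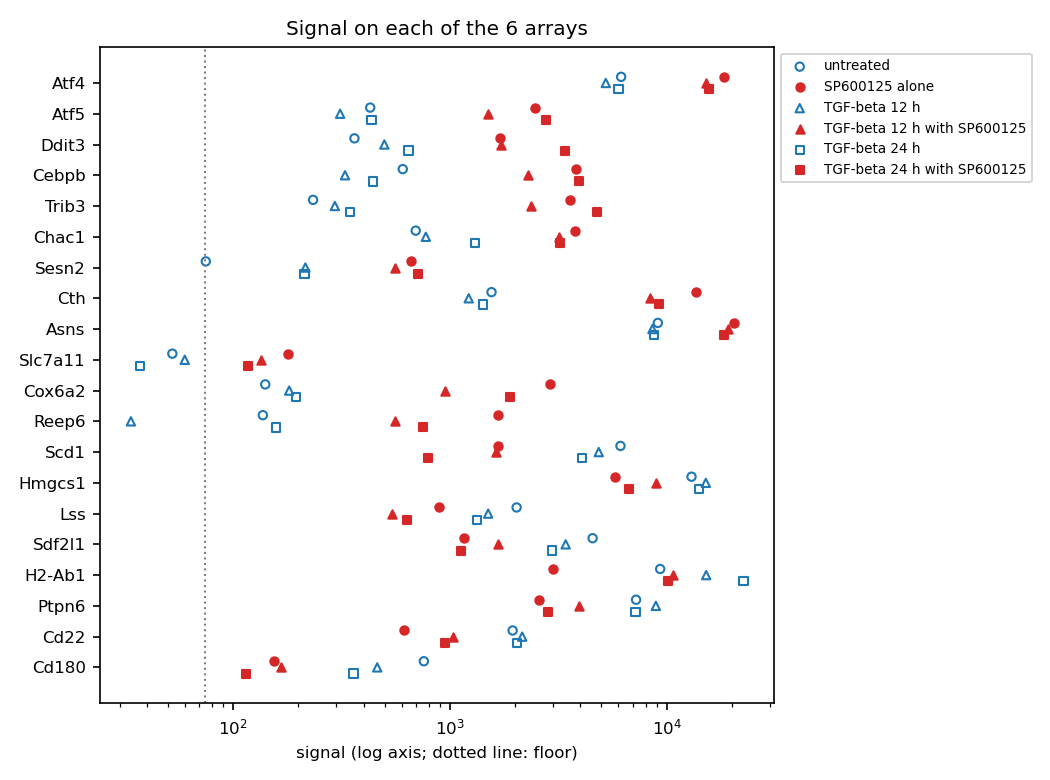
Signal of 20 genes (log axis) on each of the 6 arrays, open symbols without and filled symbols with SP600125, circles unstimulated, triangles 12 h and squares 24 h of TGF-β; the dotted line is the floor of 74.2. For Atf4, Cebpb, Trib3, Cth and Asns the 3 filled symbols lie to the right of the 3 open ones, and for Scd1, Lss, Ptpn6, Cd22 and Cd180 to the left.

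Amino acid supply genes moved the same way. In the list of amino acid synthesis genes 15 of 15 were above the floor, 5 were at least 2-fold higher and 0 lower, and the median was 0.77 (1.08 at 12 h). In the 6-array fit 9 rose and 1 fell. Cth, the last enzyme of cysteine synthesis by transsulfuration, went from 1557.8 to 13702.9, 8.80-fold higher. It read 1222.8 and 8400.7 at 12 h and 1427.9 and 9276.7 at 24 h, and rose by 2.87 ± 0.10 (adjusted p 3.15e-05). Gpt2, mitochondrial alanine transaminase, went from 271.6 to 1516.2, and all 3 of its other probe sets were also higher, by 1.34 to 2.29 (log2). Asns, asparagine synthetase, went from 9116.4 to 20433.7, and Psph, the last step of serine synthesis, from 3928.2 to 9961.3. The serine and one-carbon enzymes Psat1 (log2 0.77), Shmt2 (0.79) and Mthfd2 (0.82) rose without reaching 2-fold in this pair. The member that fell was Shmt1, the cytosolic hydroxymethyltransferase, at 4164.2 and 2136.6. Pck2, mitochondrial PEP carboxykinase, which was in no list and was singled out after its value was seen, went from 988.5 to 3971.5.

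Of 12 amino acid transporters above the floor, 3 were at least 2-fold higher and 0 lower, and 8 rose and 0 fell. Slc1a4, a carrier of neutral amino acids, went from 393.8 to 1493.2, and Slc6a9, a glycine carrier, from 434.5 to 1575.9. Their log2 differences hardly varied over the 3 pairs: 1.92, 1.90 and 1.99 for Slc1a4, and 1.86, 1.82 and 1.71 for Slc6a9. Slc7a11, the cystine carrier, was below the floor in untreated cells and 178.5 with drug, at least 2.41-fold higher. Slc3a2, the heavy chain shared by several carriers, went from 6172.8 to 11301.5. Of 19 cytosolic aminoacyl-tRNA synthetases, which charge tRNAs, 1 was past 2-fold, but 10 rose and 0 fell, and the median was 0.58 (0.35 at 12 h). Nars went from 7063.5 to 14412.8, Sars from 4452.1 to 8789.5 and Gars from 8367.6 to 15749.1. Their sizes repeated closely, as in Sars with 0.98, 0.99 and 0.98 (log2) over the pairs. Farsa, a synthetase subunit, was lower (log2 -0.69) and did not pass the test.

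The promoters of some of these genes are shown because members of the group were higher together. RefSeq promoters on GRCm38.p6, 250 bases before to 50 after the start, were found for 9253 of the 11374 genes. They were searched on both strands for the composite element bound by ATF4 with C/EBP partners, written TGATGNAA. It was present in 2.66% of all promoters, in 18 of 302 (5.96%) of the genes at least 2-fold higher and in 2 of 119 (1.68%) of those lower. Of the 49 promoters of the ATF4, amino acid and synthetase lists 12 held it (24.5%), and of the 17 in those lists at least 2-fold higher 5 held it (29.4%). The 24.5% counts list members whatever their change, and the lists were built around ATF4 and amino acid supply. It is therefore no separate result of the arrays. Stretches of 100 bases around the match in 5 higher genes follow, 5′ to 3′ on the gene's strand, with the match in capitals. They lie at chr2:119351003-119351102 (plus) for Chac1, chr12:85599316-85599415 (plus) for Jdp2, chr6:7693210-7693309 (minus) for Asns, chr14:55540117-55540216 (plus) for Pck2 and chr3:50443626-50443725 (minus) for Slc7a11.
Chac1: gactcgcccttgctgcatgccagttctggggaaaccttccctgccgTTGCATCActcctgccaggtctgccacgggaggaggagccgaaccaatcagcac
Jdp2: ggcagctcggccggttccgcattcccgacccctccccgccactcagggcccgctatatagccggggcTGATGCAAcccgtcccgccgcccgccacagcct
Asns: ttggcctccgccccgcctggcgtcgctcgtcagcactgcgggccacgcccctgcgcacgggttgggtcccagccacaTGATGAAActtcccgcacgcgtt
Pck2: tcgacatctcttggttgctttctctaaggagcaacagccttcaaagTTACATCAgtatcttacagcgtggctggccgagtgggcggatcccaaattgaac
Slc7a11: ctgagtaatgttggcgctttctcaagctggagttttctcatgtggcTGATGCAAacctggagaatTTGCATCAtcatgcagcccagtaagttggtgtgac
Slc7a11 holds the element in both orientations within its stretch. In Asns the match starts 23 bases before the annotated start and in Jdp2 33 bases before it. A match is a description of letters in this window and not a measured binding site. An AP-1 pattern, TGANTCA, was in 5.89% of all promoters, 7.95% of the higher genes and 8.40% of the lower genes.

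ER chaperones, and the ER export and degradation genes listed with them, mostly went the other way. The chaperones fold and quality-control secreted proteins and are induced by the ATF6 and XBP1 arms of the unfolded protein response. All 24 genes of the list were above the floor, and 0 were at least 2-fold higher and 6 lower. The median was -0.59 (-0.64 at 12 h and -0.26 at 24 h). In the 6-array fit 15 fell and 3 rose, and in the 4-array fit 4 fell. Sdf2l1, an ER luminal partner of chaperones, went from 4559.4 to 1168.6, 3.90-fold lower. It read 3425.2 and 1665.9 at 12 h and 2967.8 and 1122.3 at 24 h, and fell by 1.47 ± 0.16 (adjusted p 0.00227). Creld2 went from 3736.5 to 1348.0, Manf from 16440.0 to 7170.9, and Hsp90b1, the ER form of HSP90, from 10543.1 to 4696.6. The disulfide isomerases Pdia4 (log2 -1.17), Pdia6 (-0.93) and Pdia3 (-0.91) were lower in each pair and fell. Hspa5, the chaperone BiP, was 24804.7 and 17083.3 and fell by 0.47 ± 0.11 (adjusted p 0.0374). The 3 members that rose were Sel1l, of the ER degradation complex, Herpud1, which serves the same complex, and Atf6, a sensor of the response. Sel1l went from 1253.7 to 2192.7, Herpud1 from 5752.6 to 8081.5 and Atf6 from 625.0 to 1045.6. Xbp1 fell by 0.42 ± 0.08 (8900.6 and 6273.6 in this pair).

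The sterol pathway was lower almost throughout. Of 23 genes of cholesterol synthesis and uptake, all above the floor, 20 were below 0, 4 were at least 2-fold lower and 0 higher, and the median was -0.83 (-0.65 at 12 h). In the 6-array fit 17 fell and 0 rose, and in the 4-array fit 7 fell. Hmgcs1, HMG-CoA synthase at the head of the pathway, went from 13039.1 to 5804.9 (log2 -1.17, and -0.76 and -1.07 with TGF-β). It fell (adjusted p 0.00136), and all 4 of its further probe sets were lower too, 3 of them past 2-fold. Lss, lanosterol synthase, went from 2033.7 to 895.2, and Idi1, isopentenyl diphosphate isomerase, from 7557.7 to 3754.2. Nsdhl, Cyp51 and Fdft1, which act at later steps, stood close to the 2-fold line here (3132.5 and 1566.5, 3660.4 and 1834.8, 3552.1 and 1780.6), with log2 differences between -0.94 and -0.96 at 12 h and between -1.42 and -1.46 at 24 h. Insig1, which retains SREBP in the ER, was 824.3 and 427.8 and fell. Srebf2, the sterol-sensing factor, was 2220.1 and 1711.6 and did not pass the test (adjusted p 0.0729). A further Srebf2 probe set, at 2134.2 and 1109.3, gave -0.94 (log2) here and -0.86 and -0.98 with TGF-β.

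Fatty acid genes followed in part. Of 13 above the floor 1 was past 2-fold downward, the median was -0.42 (-0.50 at 12 h), and 6 fell and 0 rose. Scd1, the stearoyl-CoA desaturase, went from 6129.2 to 1662.7 and fell by 1.94 ± 0.14 (adjusted p 4.34e-04). The log2 differences of Scd1 were -1.88, -1.58 and -2.36 over the 3 pairs, and a further probe set gave -1.99, -1.02 and -1.91. Scd2 (12195.1 and 7904.8) and Fasn, fatty acid synthase (5335.4 and 3669.6), fell less. The sterol regulatory element, searched as TCACNCCAC, was in 1 of 29 lipid gene promoters (3.45%) and in 1.46% of all. The match was in Hmgcs1 and is shown as the only lipid gene match, at chr13:119690169-119690268 (plus), 137 bases before the start.
Hmgcs1: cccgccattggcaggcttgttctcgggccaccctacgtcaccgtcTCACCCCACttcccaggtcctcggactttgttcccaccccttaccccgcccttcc

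Of 7 genes of cholesterol efflux and LXR targets 1 was at least 2-fold higher, and 2 rose and 0 fell. The median was 0.57, against 0.40 at 12 h and 0.00 at 24 h. Apoe, which carries cholesterol out of cells and was in the list of efflux genes, went from 94.4 to 337.4 and rose by 1.42 ± 0.26 (adjusted p 0.0161). Mylip, a ligase that degrades the LDL receptor, was the other that rose (302.9 and 579.7). The apolipoprotein genes Apoc1 (33.0 and 605.4, at least 8.16-fold) and Apoc2 (98.4 and 621.5), in no list, were among the 15 highest genes. Both were brighter still with TGF-β, where Apoc2 read 750.0 and 2136.9 at 12 h and 2295.3 and 6433.7 at 24 h. Apoe, Apoc1 and Apoc2 lie near each other on chromosome 7, which was looked up after their values were seen. Of the genes around them, Clptm1 was 0.15, Tomm40 -0.02 and Nectin2 0.71 (log2), while Apoc4 and Gm44805, which lie among them, have no value here. Abca1, the main cholesterol exporter, was 2416.6 and 3585.6 and did not pass the test. At 24 h of TGF-β it was 0.00 (log2), and its further probe sets were -1.39 and -2.31. Abcg1, another member of the list, was 248.1 and 265.4 here but -0.90 and -1.64 (log2) in the TGF-β pairs.

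**Figure D3:**
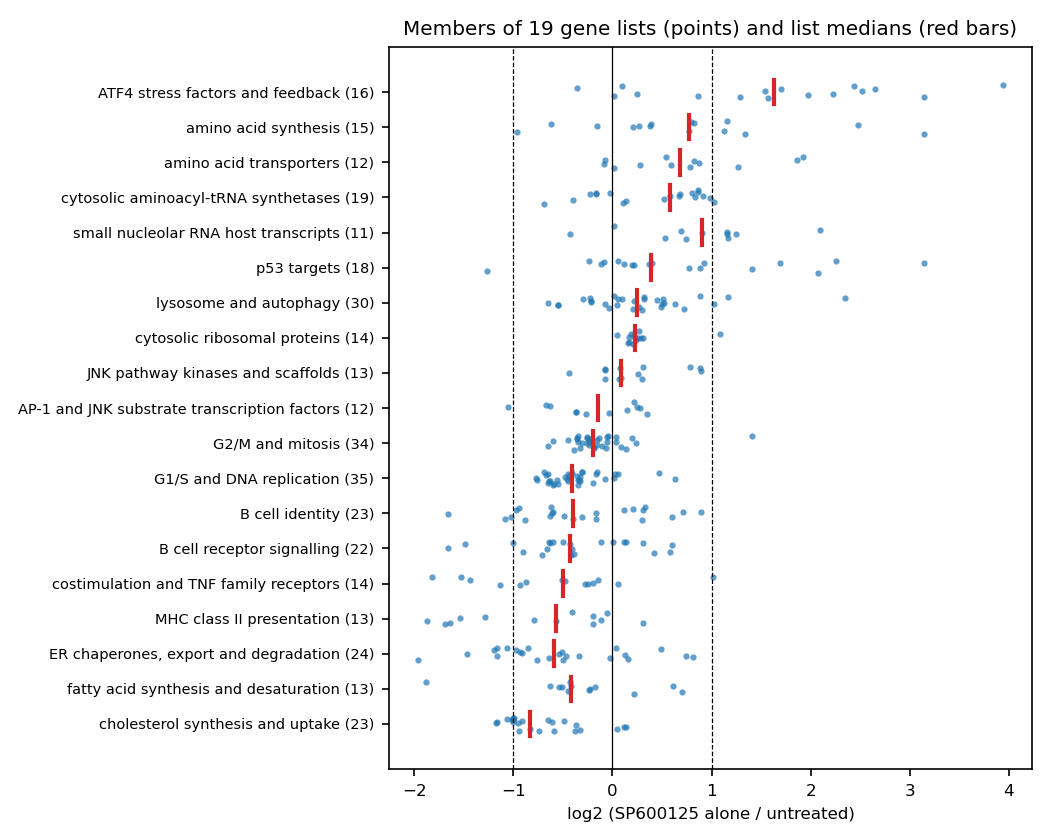
Log2 difference of SP600125 alone from untreated for each member above the floor (points) of 19 gene lists, with the list median (red bar), the number of members in brackets and dashed lines at 2-fold. The medians run from 1.63 for the ATF4 factors to -0.83 for cholesterol synthesis, and no member of the G1/S or JNK kinase lists lay past 2-fold.

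Class II antigen presentation was lower. Of 13 genes, all above the floor, 5 were at least 2-fold lower and 0 higher, the median was -0.57 (-0.32 at 12 h), and 6 fell and 0 rose. H2-Ab1, a β chain of the class II molecule, went from 9347.9 to 3004.7, and both of its further probe sets gave -1.47 and -1.67 (log2). With TGF-β the same difference was smaller at 12 h (log2 -0.51) and -1.16 at 24 h. The class II chain H2-Eb1 went from 6075.8 to 1889.2. The peptide-loading subunits H2-DMa (3869.7 and 1329.4) and H2-DMb2 (3755.2 and 1028.4) and the thiol reductase Ifi30 (7207.4 and 2944.6) completed the 5. Of these, H2-DMa passed the 4-array fit (adjusted p 0.0487). H2-DMb2 at 12 h showed little difference (log2 -0.26). The class II chain H2-Aa was not among the 5, at 22757.1 and 13165.0 (log2 -0.79) on its brightest probe set. Further bright H2-Aa probe sets gave -2.25 and -1.05 and a dim one -0.75, so the count of 5 depends on the probe set taken. Ciita, the class II transactivator, was dim (234.3 and 157.6) and did not pass. The invariant chain Cd74 was 22263.1 and 16757.7, not a call either. Of 10 class I presentation genes 0 were past 2-fold, a share that 10 genes cannot set apart from that of all genes. The immunoproteasome subunits Psmb8, Psmb9 and Psmb10 fell.

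Several B cell surface and signalling molecules were lower as well. Of 23 B cell identity genes 3 were at least 2-fold lower and 0 higher, the median was -0.40 (-0.16 at 12 h), and 9 fell and 0 rose. In the line as a whole, fewer cells with a transcript and less of it per cell cannot be told apart. Cd22, an inhibitory coreceptor, went from 1949.8 to 614.9 and fell by 1.28 ± 0.14 (adjusted p 0.00233). Ptprc, which encodes CD45, went from 16924.6 to 8014.7, although a dim further probe set gave -0.01 (log2). Ms4a1, the CD20 gene, went from 14818.8 to 7565.4, and Cr2, complement receptor CD21, from 665.6 to 328.3. Cd79b, a signalling chain of the antigen receptor, was not lower (13467.9 and 16567.2).

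Of 22 genes of receptor signalling 3 were at least 2-fold lower and 0 higher, 8 fell and 1 rose. The 3 past 2-fold were Cd22, Ptpn6 and Pik3ap1. Ptpn6, the phosphatase SHP-1, went from 7235.2 to 2568.2 and fell by 1.34 ± 0.09 (adjusted p 3.36e-04). It read 8924.8 and 3964.4 at 12 h and 7197.3 and 2839.5 at 24 h, so the arms did not overlap. Fcgr2b, the inhibitory Fc receptor, went from 3252.4 to 1740.3, and Inpp5d, the phosphatase SHIP-1, from 2188.7 to 1412.8, and both fell. Pik3ap1, the adaptor BCAP, which promotes signalling, went from 3992.6 to 1996.2, and the adaptor Grb2, which links receptors to Ras, from 5477.8 to 3465.3, and both fell. Vav2 was 417.8 and 254.8 and did not pass the test. The member that rose was Sos1, a Ras exchange factor.

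Of 14 costimulatory and TNF family receptors, 4 were at least 2-fold lower and 1 higher. The BAFF receptor gene Tnfrsf13c went from 1459.9 to 536.5 and fell by 1.24 ± 0.12 (adjusted p 0.00139). Cd40 (1422.1 and 491.1) and Icosl (586.7 and 166.3) were lower here, but Cd40 was only -0.50 and -0.12 (log2) in the TGF-β pairs, and neither passed the test. Cd274, which encodes PD-L1, went from 478.3 to 972.0 and rose. Cd180, a Toll-like receptor relative of B cells, was among the 15 lowest genes, at 759.3 and 153.9, and fell by 1.80 ± 0.23 (adjusted p 0.00431). Ptgir, the prostacyclin receptor, went from 309.3 to 78.3 and fell by 2.15 ± 0.19 (adjusted p 0.00112). Cxcr4, a homing receptor, went from 3644.7 to 10380.6, with 0.47 and 0.32 (log2) in the TGF-β pairs and no call.

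The lowest gene of all was BC035044, at 2637.3 and 306.2, 8.61-fold lower, and -1.82 and -2.76 (log2) with TGF-β. It fell by 2.56 ± 0.25 (adjusted p 0.00136). Cd36, a scavenger receptor, went from 812.6 to 175.6, and Plpp1, a lipid phosphatase, from 2769.4 to 606.5. Both fell, and the log2 differences were smaller with TGF-β, as with -1.22 and -1.53 for Cd36 against -2.21. Prdm11, of the PR domain family, was at least 5.73-fold lower here (425.0 and 63.4) but -0.15 and -0.38 (log2) with TGF-β, and did not pass the test.

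Cell cycle genes moved little but mostly in one direction. Of 35 genes of G1/S and DNA replication 30 were below 0, with a median of -0.41 (-0.37 at 12 h), and 17 fell and 0 rose. Past 2-fold were 0, a share that 35 genes cannot set apart from that of all genes. Cdc6, a replication licensing factor, went from 2557.4 to 1513.6, Uhrf1 from 4313.9 to 2534.2 and Tk1, thymidine kinase, from 2877.2 to 1811.6. The G2/M list had a median of -0.20, and 4 fell and 1 rose. The member that rose was the phosphatase Cdc25b, at 1004.8 and 2679.1. Mki67, which encodes the proliferation marker Ki-67, was 11845.1 and 12596.7. Among the CDK inhibitors Cdkn1a, p21, went from 143.0 to 461.7 and Cdkn1b, p27, from 409.3 to 1079.7, and both rose. Cdkn2b, p15, went from 582.1 to 290.8 and fell.

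Of 18 p53 targets above the floor 5 were at least 2-fold higher and 1 lower, the median was 0.38 (0.30 at 12 h), and 6 rose and 0 fell. Trp53inp1, a regulator of p53 and autophagy, went from 619.4 to 2958.7 and rose by 1.35 ± 0.24 (adjusted p 0.0154). Bbc3, the BH3-only killer PUMA, went from 379.7 to 1605.4 and rose by 1.35 ± 0.21 (adjusted p 0.0108). Mdm2, the p53 ligase and a standard target, was 1651.7 and 2136.8 and did not pass, and Fas was lower (657.5 and 272.8). Bcl2l11, which encodes BIM, went from 13428.2 to 23476.6 and rose. No caspase list member was at least 2-fold higher, which 16 genes cannot set apart from the 3.20% of all genes.

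Transcripts of the inhibited pathway came next. Of 13 JNK kinases and scaffolds 0 were past 2-fold, a share that 13 genes cannot set apart from that of all genes. The median was 0.09, and 1, the upstream kinase Map4k4, rose (863.0 and 1600.3). The upstream kinases Map3k1 (158.8 and 292.6) and Map3k11 (115.3 and 198.2) did not pass the test. Mapk8, JNK1, was 938.1 and 891.8, and Mapk9, JNK2, was 1041.9 and 993.5. Mapk10, JNK3, was below the floor on both. Of 12 AP-1 and JNK substrate factors 1 was past 2-fold, and Batf rose (2034.8 and 2595.5). Elk1 (139.2 and 87.2) and Junb (881.7 and 569.4) did not pass the test. Fos went from 258.8 to 125.0, but was -0.14 and 1.10 (log2) with TGF-β. Jun, a JNK substrate that drives its own gene, was dim, at 95.9 untreated and below the floor with drug. In the TGF-β pairs the difference had the other sign, 1.05 and 1.12 (log2), and Jun did not pass any fit. Of 9 aryl hydrocarbon receptor pathway genes 4 were above the floor and 0 past 2-fold, which 4 genes cannot set apart from all genes. Among these 4, Ahr (88.1 and 168.0) is the receptor and Arnt (1207.0 and 711.9) its partner, not targets. The targets above the floor were Tiparp (1659.3 and 1592.3) and, with drug only, Cyp1b1 (39.8 and 78.9). Cyp1a1 was below the floor on both arrays. Of 20 NRF2 genes 2 were at least 2-fold higher, 3 rose and 5 fell, and Hmox1, heme oxygenase, was among those that fell.

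Small nucleolar RNA host transcripts were higher. These non-coding transcripts carry snoRNAs in their introns, and many are degraded during translation. Of 11 above the floor 5 were at least 2-fold higher and 0 lower, the median was 0.90 (0.71 at 12 h), and 9 rose and 0 fell. Zfas1 went from 2357.2 to 10115.5, 4.29-fold higher, and rose by 1.92 ± 0.09 (adjusted p 9.89e-05). Snhg6 went from 2374.7 to 5645.7 and Gas5 from 7217.4 to 16113.3. The probe sets of Gas5 differed, with 1.14, 0.21 and -0.26 (log2) in the other 3. All 14 ribosomal protein genes were above 0, with a median of 0.23, and 1, Rps6 (1114.8 and 2381.3), rose, while in all genes 55.2% were above 0. The larger actin 3′ to 5′ ratio of the drug array stands beside these values, and its part in them was not tested.

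Of 30 lysosome and autophagy genes 3 were at least 2-fold higher, 5 rose and 1 fell. Ctsl, cathepsin L, went from 110.1 to 562.4 but was 0.79 and 0.53 (log2) with TGF-β and did not pass. Sqstm1, the autophagy receptor p62, went from 3785.7 to 7741.6 and rose. In glycolysis and hypoxia 7 fell and 1 rose of 24 in the fit. The member that rose was Vegfa, also an ATF4 target, at 126.1 and 435.0, and among those that fell was Tpi1, triose phosphate isomerase, at 14496.4 and 8565.6. Of 21 respiratory chain genes 0 were past 2-fold and 0 were called, and they lay between -0.26 and 0.28 (log2). Of 12 housekeeping genes 0 were past 2-fold, and Hprt and Tfrc fell. Tfrc was -0.37 (log2) on its brightest probe set, but -0.93 and -1.22 on dimmer ones. Neither count of 0 past 2-fold can be set apart from the 3.20% higher and 1.32% lower of all genes.

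The remaining lists held 0 to 3 genes past 2-fold each, against 3.20% higher and 1.32% lower of all genes. Counts this small were not tested against those shares. Of 16 NF-κB genes 1 was past 2-fold, the subunit gene Nfkb2 (323.6 and 842.2), which rose by 1.23 ± 0.14 (adjusted p 0.00290). Of 12 plasma cell and germinal centre genes 3 were past 2-fold. Bach2, a repressor of plasma cell fate, was higher (801.6 and 1748.3) and rose. Prdm1, which drives that fate, was lower (180.9 and 89.8) with no call, and Fas was lower (657.5 and 272.8). Of 17 TGF-β and Smad genes 0 were past 2-fold, and Smad7 was 123.6 and 121.1. Among 20 immediate-early genes and MAPK phosphatases Dusp5 was higher (358.0 and 724.9) and rose, and Dusp4 was lower (251.2 and 106.2) with no call. Of 33 genes of MYC and ribosome biogenesis 26 were below 0, while of all genes 55.2% were above 0. The list median was -0.24, but -0.07 at 12 h and 0.01 at 24 h, and 1 rose and 1 fell. Myc itself was 4364.8 and 4039.8. Of 14 heat shock chaperones Hsph1 was lower (5062.9 and 2318.3). Interferon-stimulated genes had a median of -0.25 over 15 members, and Irf7 was past 2-fold from a low signal (96.8 and 194.2).

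The pair was then set beside the 12 h and 24 h pairs, which share no array with it. Of the 364 higher genes 80 (22.0%) were at least 2-fold higher at 12 h, where 1.81% of all genes were, and 111 (30.5%) at 24 h, against 3.14%. Of the 150 lower genes 29 (19.3%) and 52 (34.7%) were at least 2-fold lower, against 1.12% and 1.93%. In all 3 pairs 52 of the higher and 18 of the lower genes were past 2-fold. The sign was the same in 303 and 297 of the 364 at 12 h and 24 h, and in 113 and 113 of the 150. Differences of 0, as where both arrays were under the floor, count as not the same. The genes were chosen for their size in the unstimulated pair, which by itself makes their sizes smaller elsewhere, so nothing is read from it. The median of the higher genes was 1.24 here and 0.56 and 0.65 in the other pairs, and that of the lower genes was -1.22 here and -0.51 and -0.65 there. In the 4-array fit 54 of the 362 higher genes in it rose and 18 of the 148 lower genes fell, and 0 were called the other way. Under 0.5 (log2) in both other pairs were 109 of the higher and 48 of the lower genes.

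The share of genes that repeated went with their brightness. A gene under the floor on both arrays of another pair has a difference of 0 there and counts as not repeated. This can lower the shares of dim genes, by an amount that was not measured. Of the 148 higher genes whose brighter signal was at most 300, 44.6% had the same sign in both other pairs, against 90.3% of 113 between 300 and 1000 and 94.2% of 103 above 1000. For the lower genes the shares were 31.3% of 67, 81.2% of 48 and 97.1% of 35. A second probe set was above the floor for 147 of the higher genes and was higher in 127, past 2-fold in 56. For the lower genes it was lower in 39 of 49 and past 2-fold in 17. Over 5236 genes the difference between both probe sets had an SD of 0.48. Limma's test of the difference between the drug effect without and with TGF-β called 0 genes of 11698, with 573 at an unadjusted p under 0.05.

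**Figure D4:**
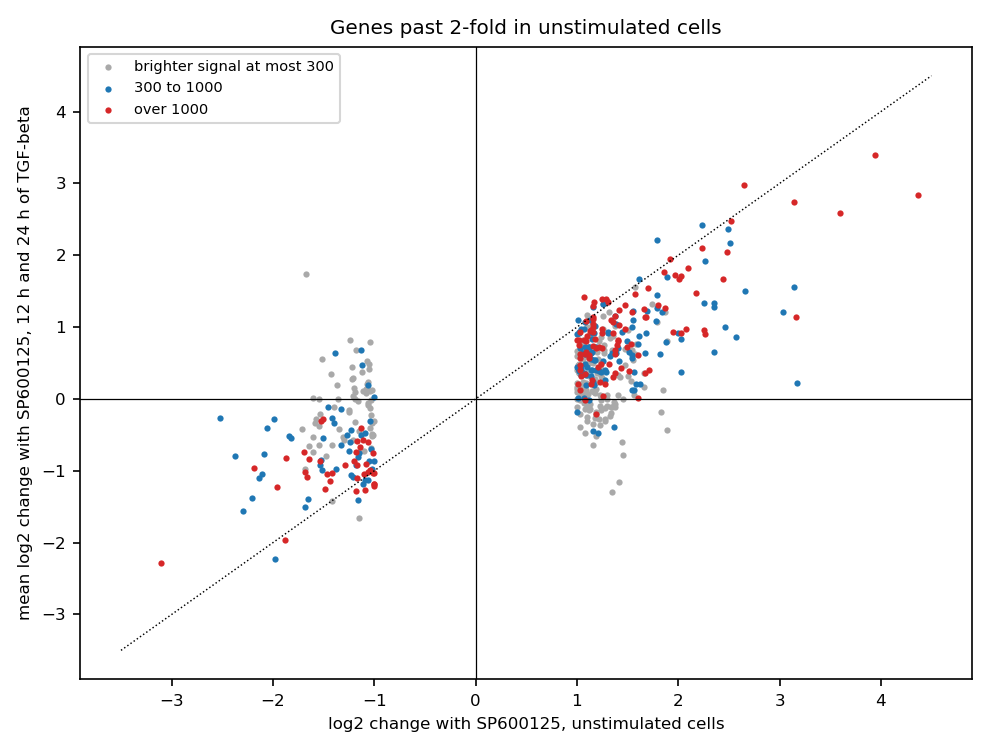
Mean log2 change with SP600125 in the 12 h and 24 h TGF-β pairs (vertical) against the change in unstimulated cells (horizontal) for the 514 genes past 2-fold in unstimulated cells, coloured by the brighter signal of the pair; the dotted line marks equal change. Genes above a signal of 1000 lie in the quadrants of equal sign more often (94.2% of the higher genes with the same sign in both pairs) than those at or under 300 (44.6%). A gene under the floor on both arrays of a TGF-β pair has no difference there and counts as not of the same sign.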

How the data were processed

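Total RNA of A20 cells was labelled as biotinylated cRNA and hybridised to 6 Affymetrix mouse arrays, per the labels' protocols. Per the submitters' processing notes, the deposited linear intensity signals came from GCOS 1.2, with settings not known here. Each array had a 2% trimmed mean of 500.0, and array medians differed by at most 1.17-fold, so no rescaling was done. Detection calls were not used, and the number of arrays limits the precision.

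Of 45101 probe sets, 34958 had 1 gene symbol in the platform annotation, 932 several and 9211 none listed. Those with 1 gave 18194 genes, each taken as its brightest probe set by mean log2 signal. Groups came from the titles. Pairs were described by fold, with no test. Limma 3.58.1 in R 4.3.3 (lmFit, eBayes with trend, Benjamini-Hochberg) was fitted to 11698 genes over the floor of 74.2 on at least 2 arrays. The fits were an additive model on 6 arrays (2 residual degrees of freedom), the same on the 4 arrays with TGF-β, and a test of the difference (1 each). Nothing says that arrays came from separate cultures, so the p-values measure only departure from additivity between single arrays, which may be technical. The fits were tested on simulated data.

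Of 825 symbols in 43 gene lists, 743 were found. Named genes were the 15 highest and 15 lowest, leading list members, JNK genes and the 6 genes differing most from the TGF-β pairs. The comparison, members and lists were chosen with earlier results of these data known. Alternatives were other floors, a pseudocount of 16, other scalings, averaged probe sets, no filter, no trend and each array left out. For the pair, keeping only genes above the floor on both arrays was a further one.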

Additional observations from a re-analysis of the deposited data

Results flagged for a closer look

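Among the named genes past 2-fold in the unstimulated pair, 5 went the other way in both TGF-β pairs, with 1 array per condition. Il17re, Wbp2nl, Spsb2 and 4933413J09Rik were named because their drug effect differed most from that in the TGF-β pairs. Their opposite signs therefore follow from the choice and are no separate result. Dusp4, a MAPK phosphatase, was -1.24 (log2) without TGF-β and 0.60 and 1.03 at 12 h and 24 h with it. Il17re was -1.67 against 1.37 and 2.11. Wbp2nl was 1.35 against -1.48 and -1.12, Spsb2 1.42 against -1.46 and -0.85, and 4933413J09Rik 1.89 against -0.39 and -0.48. A further Spsb2 probe set, dim in the unstimulated pair, gave 0.12 against -0.36 and 0.68. The brightest signal of the 5 in the unstimulated pair was 274.3, and all but Dusp4 were below the floor on 1 array of that pair, so their unstimulated differences are at least this size. In limma's test of the difference none of them passed. It called 0 genes, with 573 at an unadjusted p under 0.05.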

How the results depend on the processing

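No named gene past 2-fold in the pair (694 values), no called drug effect of a named gene (1858) and no list median of at least 0.4 in size (110) changed sign under the alternatives run. Over all sizes, values with 2 decimals changed sign in 7 of 1809, 94 of 3732 and 16 of 298. For the pair, 1 alternative kept only genes above the floor on both arrays. It leaves each gene's value as it was, so no gene could change sign there. The counts depended more on the settings. With the floor at the 25th percentile the 2-fold rule took 1494 genes upward and 1133 downward, at the 75th 119 and 37, and with a pseudocount and no floor 644 and 400. Averaging all probe sets gave 215 higher. In the 6-array limma fit, median scaling gave 678 fallen, averaged probe sets 110 risen and 65 fallen, no intensity trend 72 and 22, and no filter on low signals 0 and 0 (2300 at an unadjusted p under 0.05). Leaving out 1 array gave 0 to 85 risen and 0 to 48 fallen. The 4-array fit gave 30 and 10 with the floor at the 25th percentile, 463 and 441 with a pseudocount, 21 and 10 with median scaling and 13 and 0 with quantile normalization. It gave 0 and 0 with the floor at the 75th percentile, averaged probe sets, no filter or no trend, with 1564, 1853, 1609 and 1773 genes at an unadjusted p under 0.05. The test of the difference called 7 genes with a pseudocount and 319 with no filter. The cause was not tested. Of 3732 tests of named genes under alternatives, 1008 lost their call and 49 gained one. No paired analysis was possible because each condition has 1 array, so no replicate numbers pair samples. The 6-array fit does match drug and no drug within each TGF-β state. With 1 array a side, no difference in the pair can be set against a replicate spread, and dim genes carry only bounds.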
